A study of Mus musculus with 4 samples.

Results

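Immune checkpoint receptors and ligands are the pairs of surface proteins that restrain T cells, and 10 of their genes were read here in mouse lung tumours with and without CD109. The receptor genes were Pdcd1 (PD-1), Ctla4, Havcr2 (TIM-3), Lag3, Tigit and Vsir (VISTA). The ligand genes were Cd274 (PD-L1), Pdcd1lg2 (PD-L2), Cd80 and Cd86. All probes whose accession belongs to one of these genes were taken, which gave 17 of the 56605 probes on the array and 10 of the 23787 genes that could be named. Of the 17 probes, 10 were well above background on all 4 arrays and stood for 8 genes, and 3 more were tested because they were well above background on both CD109-/- arrays. The remaining 4 probes, among them the only probes of Ctla4 and Tigit, did not pass the filter on dim probes.

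The tumours came from KP mice, a lung adenocarcinoma model in which Cre recombinase alters engineered alleles in lung cells, the removal of Trp53 among them. One group was CD109-/- (2 samples, replicate 1 male and replicate 2 female) and the other CD109+/+ (2 samples, both female), all on the C57BL/6J strain. Both groups had received adenovirus with Cre through the trachea 88 to 92 days before RNA was taken, so Cre acted in whichever airway and alveolar cells the virus reached. The labels give no age of the mice, no number of tumours per sample, nor whether the replicates are different mice, so that the p-values measure only the spread between these 4 samples. Total RNA of unsorted tumour tissue was labelled with 1 dye and hybridised to 1 Agilent array per sample. The study asked which genes and pathways go with CD109 deficiency.

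The checkpoint receptors sit mainly on activated T cells. PD-1 is engaged by PD-L1 and PD-L2 and recruits phosphatases that damp signals of the T cell receptor, and CTLA-4 competes with the activating receptor CD28 for the shared ligands CD80 and CD86. TIM-3, LAG-3 and TIGIT are further receptors of chronically stimulated T cells and NK cells. In tumours several of these genes are also used by myeloid cells: TIM-3 and VISTA are found on macrophages and dendritic cells, CD80 and CD86 mark activated antigen-presenting cells, and interferon gamma induces PD-L1 on tumour and myeloid cells alike. In RNA of whole tissue, more cells of a type and more RNA per cell cannot be told apart.

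The sequences just before the start of the genes are shown first for 4 of the members whose values were higher in CD109-/- tumours: both PD-1 ligands, Havcr2 and Cd80. These 4 were picked with their values known, and other members such as Vsir were higher too. A link between the letters of the promoters and the values was not tested. Each is the run of 250 bases before the start, 5′ to 3′ on the gene's strand, from RefSeq's table on GRCm38.p6. Capitals mark matches to the core of an interferon regulatory factor element (GAAANNGAA, 9 letters) or to a loose AP-1 pattern (TGANTCA, 7 letters), searched on both strands. The AP-1 pattern leaves its middle base open.

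Cd274, chr19:29367188-29367437, + strand: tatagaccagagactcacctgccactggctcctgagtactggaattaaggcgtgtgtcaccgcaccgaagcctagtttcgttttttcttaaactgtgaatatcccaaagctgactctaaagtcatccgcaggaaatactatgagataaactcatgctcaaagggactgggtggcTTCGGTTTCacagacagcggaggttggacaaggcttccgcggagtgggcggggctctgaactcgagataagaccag
Pdcd1lg2, chr19:29410669-29410918, + strand: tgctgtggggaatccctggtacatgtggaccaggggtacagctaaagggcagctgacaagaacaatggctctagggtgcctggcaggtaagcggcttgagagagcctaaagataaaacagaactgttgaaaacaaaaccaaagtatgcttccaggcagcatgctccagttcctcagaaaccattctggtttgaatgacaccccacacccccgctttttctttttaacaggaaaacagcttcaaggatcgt
Havcr2, chr11:46454681-46454930, + strand: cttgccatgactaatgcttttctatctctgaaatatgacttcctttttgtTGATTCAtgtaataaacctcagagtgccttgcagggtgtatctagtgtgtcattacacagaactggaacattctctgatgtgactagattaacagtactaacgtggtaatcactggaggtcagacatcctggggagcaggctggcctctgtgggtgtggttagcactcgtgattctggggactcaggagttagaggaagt
Cd80, chr16:38458683-38458932, + strand: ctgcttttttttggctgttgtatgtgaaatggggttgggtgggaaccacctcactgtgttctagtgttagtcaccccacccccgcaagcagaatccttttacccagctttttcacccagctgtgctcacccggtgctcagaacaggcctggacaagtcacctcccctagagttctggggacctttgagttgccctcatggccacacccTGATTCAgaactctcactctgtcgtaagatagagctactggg

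Windows were found for 8 of the 10 genes, with none for Lag3 and Cd86. The interferon element core was matched in 2 of these 8 windows, those of Cd274 and Ctla4, and in 7.13% of all 32851 windows of the same length. In Cd274 the match lay 76 to 68 bases before the start, on the opposite strand. The loose AP-1 pattern was matched in the windows of Havcr2 and Cd80, each time as TGATTCA, against 6.75% of all windows. A gamma-activated site (TTCNNNGAA, 9 letters), also searched on both strands, was matched in 0 of the 8 windows, against 7.02% of all windows. The windows of Pdcd1lg2, Pdcd1, Tigit and Vsir held none of these letters. Cd274 and Pdcd1lg2 are neighbours on chromosome 19 with only a noncoding gene between them. A match describes letters in the window and shows no binding.

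Values are given as log2 of the processed signal relative to each array's 75th percentile, so a value of 0 is the 75th percentile and a difference of 1 is a factor of 2. Differences are CD109-/- minus CD109+/+ with limma's standard error (SE, n = 2 per genotype), and adjusted p-values run over all 35769 probes tested. Levels of different probes are not set against each other, because probes differ in how well they bind. The 75th percentile lay between 557 and 688 signal units on the 4 arrays, the share of spots well above background was 64.3% to 67.0%, and saturation was seen in 0 spots. The targeted gene was read as a check of the labels: the Cd109 probe gave -7.98 and -7.87 on the CD109-/- arrays, where it was not well above background, against -3.70 and -4.66 on the CD109+/+ arrays. Markers of the labelled tissue were present, and all 14 of the lung epithelial and tumour markers passed the filter, among them the lineage factor gene Nkx2-1, picked as an example after its values were seen, at 2.45 and 3.16 in CD109-/- tumours, against 3.45 and 3.39 in CD109+/+ tumours. The T cell markers Cd3e and Cd4 were well above background on all 4 arrays, and Cd8a did not pass the filter.

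Among the receptors, Havcr2 and Vsir had clearly separated genotypes. Havcr2 stood at -0.98 and -0.90 in CD109-/- tumours, against -2.17 and -1.82 in CD109+/+ tumours. Both CD109-/- samples were about 2-fold above the CD109+/+ mean and lay close together, and the genotypes did not overlap. The difference was 1.06 ± 0.25 (95% interval 0.41 to 1.70), a factor of 2.08. Vsir, which acts both as a receptor on T cells and as a ligand on myeloid cells, was read by 2 probes. Its first probe, A_51_P372992, gave -0.53 and -0.86 in CD109-/- tumours, against -1.60 and -1.68 in CD109+/+ tumours. Its second probe, A_55_P2115136, gave -0.98 and -1.67 in CD109-/- tumours, against -2.45 and -2.43 in CD109+/+ tumours. The 2 probes ordered the samples alike in that CD109-/- replicate 1 was highest, followed by CD109-/- replicate 2, with both CD109+/+ samples below. Their differences were 0.94 ± 0.25 and 1.12 ± 0.31, factors of 1.92 and 2.17. None of these 3 probes passed over all probes, with limma's adjusted p = 0.595 for Havcr2 and 0.616 and 0.624 for Vsir.

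Pdcd1 was less clear. PD-1 transcript stood at -3.08 and -3.08 in CD109-/- tumours, against -3.21 and -4.33 in CD109+/+ tumours. The CD109-/- samples were all but equal, while the CD109+/+ samples differed by 1.12 between themselves and replicate 1 lay only just below the CD109-/- samples. The difference was 0.69 ± 0.42 (limma's adjusted p = 0.796), which became 0.13 when CD109+/+ replicate 2 was left out and 1.26 when CD109+/+ replicate 1 was. With normexp and all arrays kept it was 0.26.

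Lag3 ran the other way. LAG-3 binds MHC class II and the secreted protein FGL1. Its probe A_51_P264825 gave -5.34 and -4.95 in CD109-/- tumours, against -4.64 and -4.50 in CD109+/+ tumours. Both CD109-/- samples were lower than both CD109+/+ samples, the only member probe well above background on all arrays with this order. The difference was -0.58 ± 0.26 (limma's adjusted p = 0.757), and with normexp background correction it was -0.15. The signal was close to the dimmest value counted as above background, which lay between -5.88 and -5.62 on the 4 arrays. A second Lag3 probe, A_66_P119717, was not well above background on any array, with values between -7.79 and -7.63 in CD109-/- tumours and between -7.89 and -7.43 in CD109+/+ tumours. Whether the Lag3 difference differed from that of the other members was not tested.

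Ctla4 and Tigit could not be compared. Ctla4 gave -6.00 and -7.21 in CD109-/- tumours, where it was not well above background, against -6.60 and -5.29 in CD109+/+ tumours, where 1 of the 2 arrays measured it. Tigit gave -3.54 and -6.78 in CD109-/- tumours, where only replicate 1 was well above background, against -5.50 and -8.06 in CD109+/+ tumours, where it was not. The genotypes overlapped in both genes, and the 2 CD109-/- values of Tigit lay 3.24 apart.

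**Figure D1:**
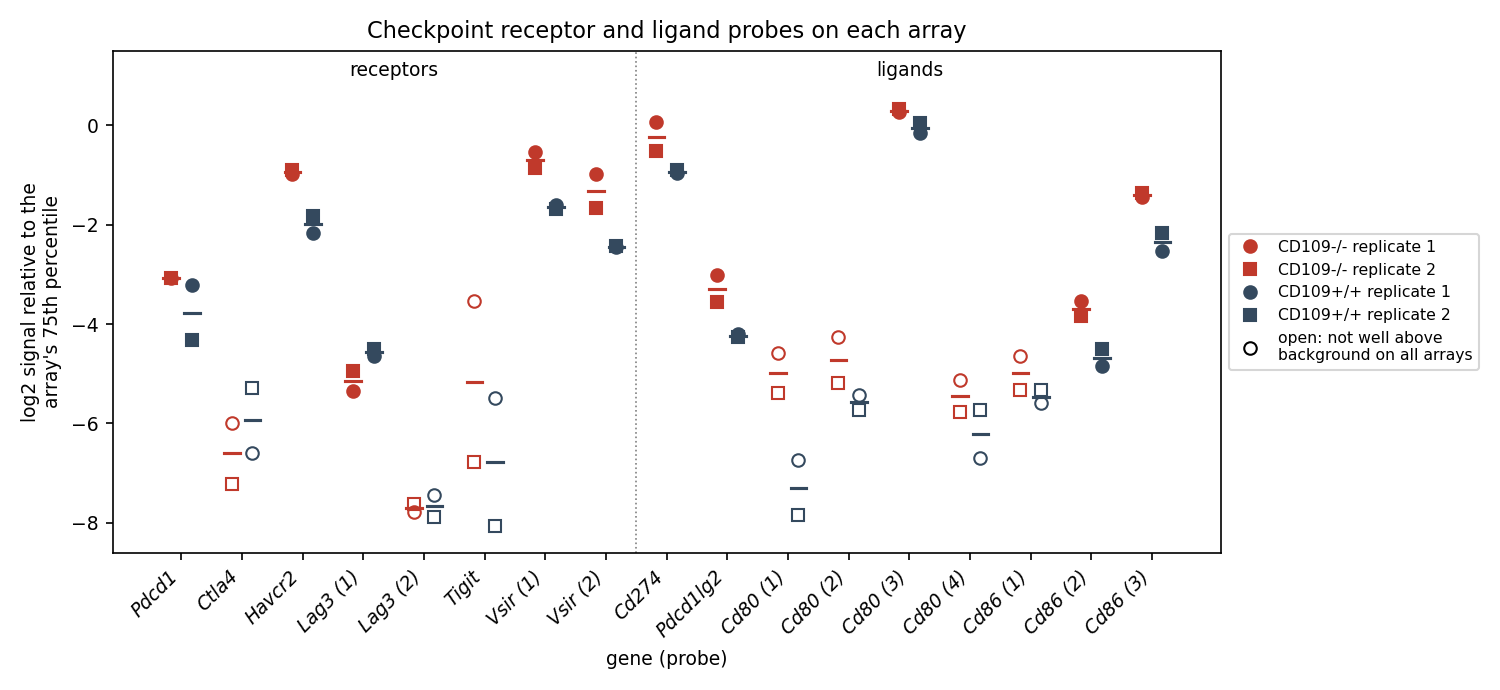
Log2 signal relative to the array's 75th percentile (vertical axis) of each of the 17 probes (horizontal axis, receptors left, ligands right) on the CD109-/- arrays (red) and the CD109+/+ arrays (dark blue), with circles for replicate 1, squares for replicate 2 and bars for the mean. Open symbols mark probes not well above background on all 4 arrays. Havcr2, Vsir, Cd274, Pdcd1lg2 and the brighter Cd86 probes sit higher in CD109-/- tumours without overlap, Lag3 sits lower, and Ctla4 and Tigit overlap.

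The PD-1 ligands were both higher in CD109-/- tumours. Cd274 stood at 0.06 and -0.53 in CD109-/- tumours, against -0.97 and -0.91 in CD109+/+ tumours. The CD109+/+ samples were nearly equal, and CD109-/- replicate 2 lay between them and CD109-/- replicate 1. The difference was 0.70 ± 0.29 (factor 1.63, 95% interval -0.04 to 1.45), and in the female samples alone, without CD109-/- replicate 1, it was 0.41. Pdcd1lg2, a ligand found mostly on dendritic cells and macrophages, stood at -3.01 and -3.56 in CD109-/- tumours, against -4.20 and -4.27 in CD109+/+ tumours. As for Cd274, CD109-/- replicate 1 was highest and the CD109+/+ samples were nearly equal. The difference of Pdcd1lg2 was 0.95 ± 0.29 (factor 1.93), and 0.37 with normexp. Neither ligand passed over all probes (limma's adjusted p = 0.740 for Cd274 and 0.638 for Pdcd1lg2).

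Cd86 was read by 3 probes and Cd80 by 4, and within each gene the probes gave the same direction but different sizes. The Cd86 probe A_55_P1971951 gave -1.44 and -1.35 in CD109-/- tumours, against -2.53 and -2.18 in CD109+/+ tumours. The Cd86 probe A_52_P145861 gave -3.54 and -3.84 in CD109-/- tumours, against -4.85 and -4.51 in CD109+/+ tumours. In both, the 2 CD109-/- samples lay close together and above both CD109+/+ samples, by 0.96 ± 0.25 and 0.99 ± 0.27 (limma's adjusted p = 0.615 and 0.623). With normexp the second of these was 0.45. The third Cd86 probe, A_51_P174723, was well above background on both CD109-/- arrays and on 1 CD109+/+ array and gave -4.64 and -5.33 in CD109-/- tumours, against -5.59 and -5.33 in CD109+/+ tumours. Its genotypes overlapped, and its difference of 0.47 ± 0.32 was 0.13 without CD109-/- replicate 1.

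Of the Cd80 probes only A_55_P2001218 was well above background on all 4 arrays. It gave 0.26 and 0.33 in CD109-/- tumours, against -0.16 and 0.05 in CD109+/+ tumours. The genotypes did not overlap, but the difference of 0.35 ± 0.23 (factor 1.27, limma's adjusted p = 0.815) was the smallest among the 13 tested probes. A_51_P418295 gave -4.58 and -5.39 in CD109-/- tumours and was not well above background in CD109+/+ tumours, with measured values of -6.75 and -7.84. The fit took these values as they stood and gave a log2 difference of 2.31 (limma's adjusted p = 0.574, the lowest of the members). Both CD109+/+ values lay under the dimmest signal counted as above background, so only a bound of at least 1.70-fold higher holds in the main analysis. With normexp the log2 difference was 0.32, below that bound. A_52_P244005 gave -4.26 and -5.18 in CD109-/- tumours and likewise was not well above background in CD109+/+ tumours, at -5.43 and -5.72. Its bound of at least 1.81-fold higher is the measured ratio itself, since both CD109+/+ values lay above the dimmest signal on their arrays, and its log2 difference was 0.27 with normexp and 0.39 without CD109-/- replicate 1. For bounds such as that of A_51_P418295 the CD109-/- mean was set against a CD109+/+ mean in which a value under the dimmest signal above background on its array was replaced by that signal. The last Cd80 probe, A_66_P130432, was well above background on 1 array of each genotype and overlapped. The Cd80 probes thus disagreed in detection and in size, and which transcripts each probe reads was not examined.

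Counted together, the genotypes did not overlap in any of the 10 member probes that were well above background on all arrays: 9 probes of 7 genes were higher in CD109-/- tumours and 1 was lower. Over all 33358 probes detected in this way, 16.1% were higher without overlap and 20.6% lower. Of the full set of 17 member probes, with no filter, 11 were higher without overlap, 1 was lower and 5 overlapped, against 12.8% higher and 18.8% lower over all 56594 probes. At an unadjusted p under 0.05, 6 of the 10 probes were higher and 0 lower, against 3.29% higher over all probes detected on 4 arrays. The median difference of the 10 probes was 0.94, against -0.04 over all such probes. Probes of 1 gene share their transcript, so these 10 probes stand for 8 genes. The members were chosen with earlier results of these data known, so the counts beside the array-wide shares are descriptions and no test. With limma's Benjamini-Hochberg adjustment 0 of the 13 tested member probes passed 0.05, as did 0 (0%) of the 35769 probes tested. The lowest adjusted p of a member was 0.574, for the Cd80 probe A_51_P418295, which was not well above background in CD109+/+ tumours. With 2 samples against 2, the smallest p that exact two-sided permutation allows for 1 probe is 0.333.

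CD109-/- replicate 1 is the only male sample. The direction of each of the 10 member probes well above background on all arrays was the same without it, when only female samples remained. The genotypes did not overlap in these 10 probes, so leaving out 1 array could not change their direction, and this is no support. The others of the 13 tested probes kept theirs too. They had passed the filter only through the CD109-/- arrays, which favours a higher value there, so their direction is no support. Without it the differences of Havcr2 (1.09), Vsir (0.77 and 0.77) and the brighter Cd86 probes (1.00 and 0.84) stayed above 0.7, whereas that of Cd274 was 0.41 and that of the Cd80 probe A_52_P244005 was 0.39. Sex and replicate 1 cannot be told apart within the CD109-/- group.

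**Figure D2:**
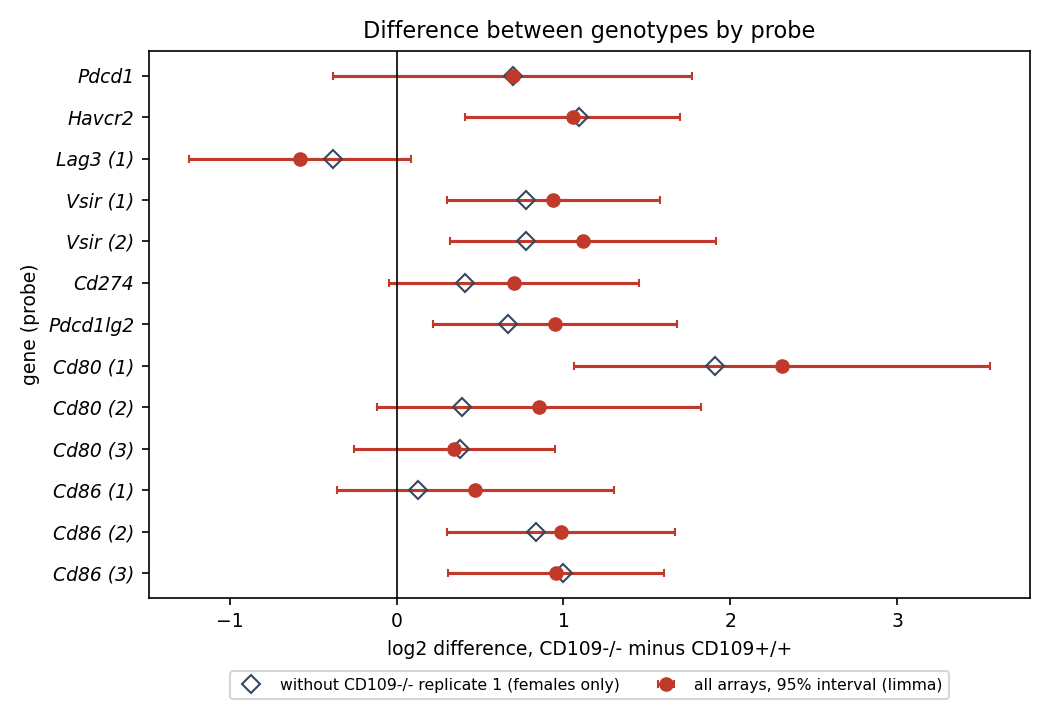
Log2 difference between genotypes, CD109-/- minus CD109+/+ (horizontal axis), for the 13 tested member probes (vertical axis). Filled circles with bars give the difference over all arrays with limma's 95% interval, and open diamonds the difference without CD109-/- replicate 1; numbers in brackets count the probes of a gene. Lag3 lies left of 0, and Havcr2, Vsir, Pdcd1lg2 and the brighter Cd86 probes have intervals right of 0, without adjustment for the number of probes. The first 2 Cd80 probes and the first Cd86 probe were not well above background on 1 or both CD109+/+ arrays, so their positions and intervals are uncertain. For the first Cd80 probe both CD109+/+ values lay under the dimmest signal counted as above background, so its position is not a measured difference.

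The binding partners of the receptors outside the 10 genes did not share one direction. The list of further co-inhibitory ligands and counter-receptors had 7 of 16 tested genes with higher and 9 with lower means in CD109-/- tumours. Over all genes tested, 50.3% had higher means. The list's median was -0.21, and 0 genes passed the test in either direction. Fgl1, the secreted LAG-3 ligand best known from liver, had the largest difference of the list. It stood at 0.61 and 0.46 in CD109-/- tumours, against 2.54 and 2.30 in CD109+/+ tumours, a difference of -1.89 ± 0.24 (limma's adjusted p = 0.471). The TIM-3 ligand gene Lgals9 differed by 0.22 ± 0.29 and Lgals3, whose product binds LAG-3, by 0.18 ± 0.43, and the genotypes overlapped in both. The TIGIT ligand genes Pvr and Nectin2 differed by -0.40 ± 0.29 and -0.21 ± 0.24. The VISTA partner gene Selplg (PSGL-1) stood at 1.36 and 1.14 in CD109-/- tumours, against 0.61 and 0.40 in CD109+/+ tumours, a difference of 0.74 ± 0.24, and Cd200, whose product restrains myeloid cells, differed by 0.82 ± 0.39 with a further probe at 0.28.

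The co-inhibitory receptors beyond the members mostly had higher values. Of 10 tested genes 9 had higher means in CD109-/- tumours, with a median of 0.85, against 50.3% of the 16443 genes tested and a median of 0.0029 over them; again 0 passed. The inhibitory collagen receptor gene Lair1 stood at -0.46 and -0.58 in CD109-/- tumours, against -1.42 and -1.31 in CD109+/+ tumours, a difference of 0.84 ± 0.23. Sirpa, the CD47 receptor of macrophages, differed by 0.98 ± 0.28. Klrg1, a receptor of mature T and NK cells, was not well above background in CD109+/+ tumours and was at least 2.71-fold higher in CD109-/- tumours, where it stood at -4.66 and -3.96. That bound is for its brightest tested probe, and a further Klrg1 probe differed by 1.23 on the log2 scale. The brightest probe passed the filter only through the CD109-/- arrays, which favours a higher value there. With only probes well above background on all 4 arrays the list's median was 0.84. Lair1 and Sirpa are expressed widely on myeloid cells.

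Co-stimulatory receptors and ligands, which oppose the checkpoints, had higher means in 12 of 14 tested genes, against 50.3% of all genes tested, and 0 passed. Their median was 0.65, and 0.55 with only probes well above background on all 4 arrays. Cd226, the activating receptor that competes with TIGIT for the same ligands, stood at -3.73 and -3.91 in CD109-/- tumours, against -6.70 and -5.49 in CD109+/+ tumours, where 1 of the 2 arrays was well above background. Because 1 CD109+/+ value was not above background, no exact difference is given for Cd226 (limma's adjusted p = 0.550). Its probe passed the filter only through the CD109-/- arrays, which favours a higher value there. Cd28, the activating receptor for CD80 and CD86, differed by only 0.25 ± 0.28 with overlapping genotypes, and Icos by 0.55 ± 0.30. The adhesion and signalling genes Cd48 and Slamf6 differed by 0.90 ± 0.24 and 0.82 ± 0.24.

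The list of interferon gamma signalling towards Cd274 had higher means in CD109-/- tumours in 14 of 14 genes, against 50.3% of all genes tested, and 0 passed. The median was 0.48, also with only probes well above background on all 4 arrays. The Ifng probe passed the filter only through the CD109-/- arrays, which favours a higher value there. The genotypes overlapped in Ifngr1, Ifngr2, Stat3 and Cxcl10. Ifng itself stood at -4.74 and -5.36 in CD109-/- tumours and was not well above background in CD109+/+ tumours, which allows only a bound of at least 1.63-fold higher. The interferon gamma induced chemokine gene Cxcl9 stood at -2.38 and -2.94 in CD109-/- tumours, against -3.46 and -3.95 in CD109+/+ tumours, a difference of 1.05 ± 0.33. Cd38, an ectoenzyme gene, differed by 1.01 ± 0.27. Irf1, a transcription factor gene of this pathway, differed by 0.24 ± 0.23. Genes whose products act on PD-L1 protein had a median of 0.09 (6 of 10 with higher means, 0 passed), and Cmtm6, which keeps PD-L1 at the cell surface, differed by -0.03 ± 0.24. B3gnt3, a glycosyltransferase gene of that list, differed by 1.44 ± 0.37 with a further probe at 0.75, Spop by 0.35 ± 0.24 and Gsk3b by 0.29 ± 0.25.

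Transcription factors linked to T cell exhaustion were mixed, with higher means in 9 of 15 genes, near the 50.3% of all genes tested. Their median was 0.10, and 0 passed. Batf stood at -0.51 and -0.01 in CD109-/- tumours, against -1.59 and -1.37 in CD109+/+ tumours, a difference of 1.22 ± 0.28, and Irf4 differed by 1.42 ± 0.37. Tox2 differed by 0.56 ± 0.29, with a further probe at -0.16. Among regulatory T cell genes 5 of 7 had higher means, with a median of 0.34 and 0 passing, but Foxp3, the defining factor of these cells, differed by 0.06 ± 0.48 with overlapping genotypes. Lrrc32 and Ebi3 differed by 0.65 ± 0.28 and 0.52 ± 0.23, and Ccr8, a chemokine receptor gene of tumour regulatory T cells, by -0.52 ± 0.22. Of the phosphatases and adaptors that act below the receptors 10 of 11 had higher means, with a median of 0.27 and 0 passing. The inositol phosphatase gene Inpp5d (SHIP-1) differed by 1.01 ± 0.25, the kinase gene Fyn by 0.65 ± 0.33, and Sh2d1b1 by 0.68 ± 0.41 with a further probe at 1.24.

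**Figure D3:**
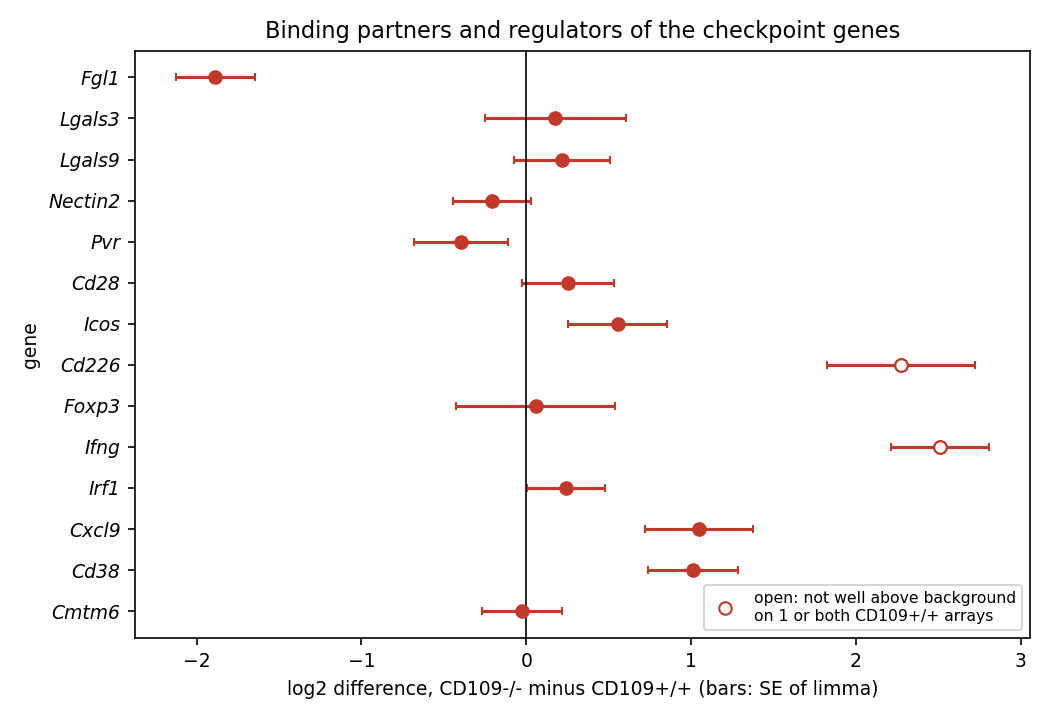
Log2 difference between genotypes, CD109-/- minus CD109+/+ (horizontal axis), with limma's SE as bars, for 14 binding partners and regulators of the checkpoint genes (vertical axis). Open circles mark Cd226 and Ifng, which were not well above background on 1 or both CD109+/+ arrays, so that their positions are not measured differences. Fgl1 stands at -1.89, the ligand genes Lgals3, Lgals9, Nectin2 and Pvr lie within 0.4 of 0, and Cxcl9 and Cd38 lie near 1.

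Markers of the cell types that carry these genes were read on the same arrays, and 0 of them passed limma's adjusted threshold. For comparison, 50.3% of all genes tested had higher means, with a median of 0.0029. Macrophage and monocyte markers had higher means in CD109-/- tumours in 16 of 17 genes (median 0.54), and their summed level, in units of the 75th percentile, was 186 and 149.6 in CD109-/- tumours, against 142 and 134 in CD109+/+ tumours. Most of that sum came from the bright probes of Ly6c2, Itgam and Lyz2 on every array. The defining macrophage genes Adgre1, Cd68 and Csf1r differed by 0.94 ± 0.26, 0.54 ± 0.24 and 0.49 ± 0.23, with further probes at 0.45 for Cd68 and 0.0036 for Csf1r. Dendritic cell markers had higher means in 11 of 13 genes (median 0.58), and their summed level, most of which came from the bright probes of Cd74, H2-Ab1 and Siglech on every array, was 249.6 and 375 in CD109-/- tumours, against 255 and 335 in CD109+/+ tumours. Itgax differed by 0.86 ± 0.23. Flt3 stood at -3.92 and -3.22 in CD109-/- tumours, against -6.42 and -5.12 in CD109+/+ tumours, where only 1 array was well above background, so no exact difference holds. The probes read for Flt3, Cd209a and the macrophage gene Cd163 passed the filter only through the CD109-/- arrays, which favours higher values there. With only probes well above background on all 4 arrays the medians were 0.54 for the macrophage and 0.50 for the dendritic cell list. Zbtb46, a factor gene of conventional dendritic cells, stood at -5.23 and -5.80 in CD109-/- tumours, where 1 array was well above background, against -5.39 and -4.85 in CD109+/+ tumours, and Xcr1 did not pass the filter. Other macrophage markers were unequal, with 1.26 for Lyz2, 1.21 for Mrc1, 0.31 for C1qa, 0.05 for Cx3cr1 and -0.50 for Itgam. Itgam was the only gene of the list with a lower mean. These genes were named after their values were seen. The part of myeloid cell content in the values of Havcr2, Vsir, Pdcd1lg2 and Cd86 was not tested.

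T cell markers had higher means in 10 of 11 tested genes (median 0.71), against 50.3% of all genes tested. Their summed level was 10.4 and 9.84 in CD109-/- tumours, against 9.79 and 7.62 in CD109+/+ tumours. Most of that sum came from the bright probes of Cd247 and Cd4 on every array, and Cd247 differed by 0.10 ± 0.28. The genes of this list were unequal. Cd3d, chosen with Cd3g after their values were seen, differed by 1.63 ± 0.31 and Cd3g by 1.54 ± 0.32, while Cd3e differed by 0.30 ± 0.25 with a further probe at 0.13 and Cd4 by -0.12 ± 0.23. NK cell markers had higher means in 4 of 5 tested genes, with a summed level of 1.93 and 1.25 in CD109-/- tumours, against 1.35 and 1.04 in CD109+/+ tumours, and the defining NK genes Ncr1 and Klrb1c did not pass the filter. The only Lag3 probe above background, close to the dimmest signal counted so, differed by -0.58 ± 0.26, and by -0.15 with normexp. The part of T cell content in the receptor values was not tested.

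**Figure D4:**
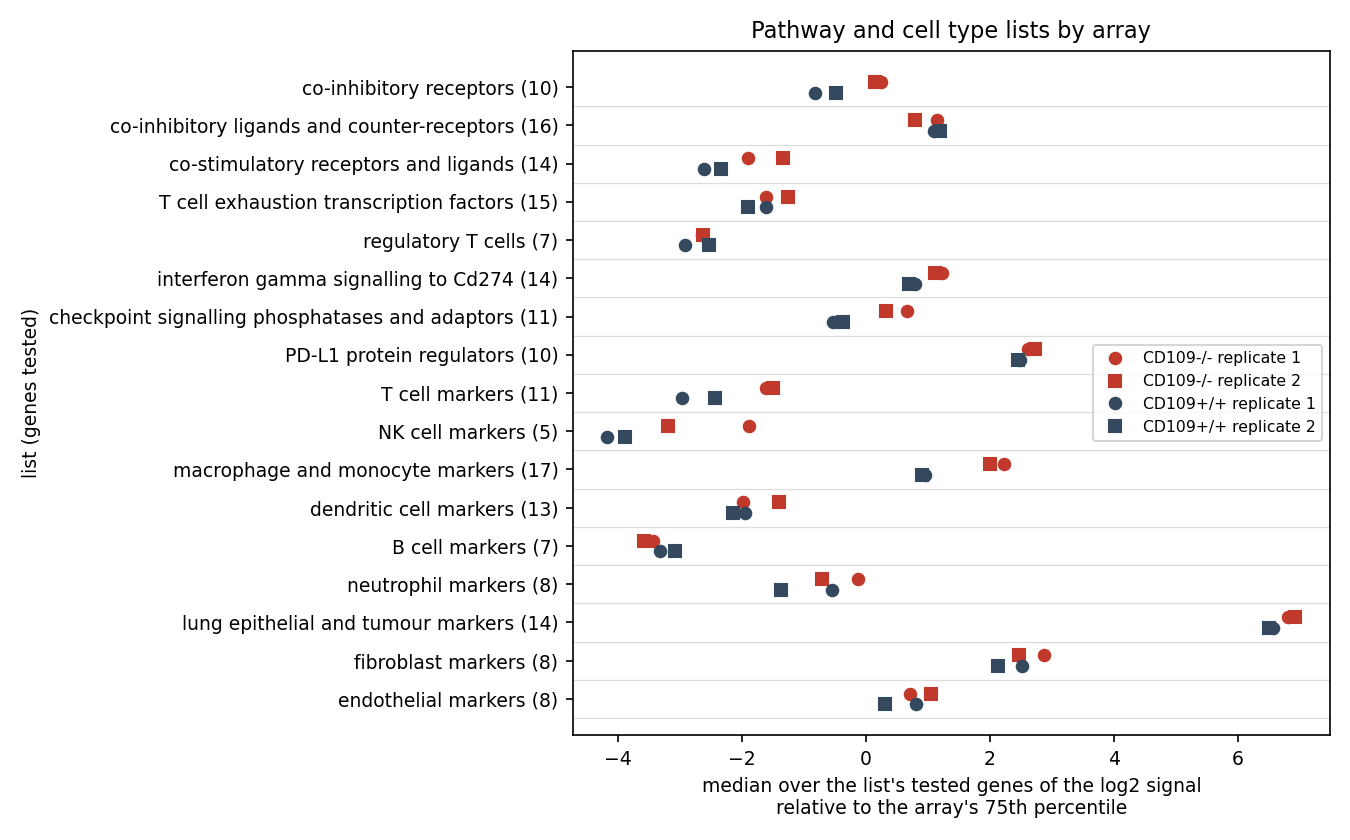
Median over the tested genes of each list of the log2 signal relative to the array's 75th percentile (horizontal axis), for the CD109-/- arrays (red) and the CD109+/+ arrays (dark blue), with circles for replicate 1 and squares for replicate 2; the number of tested genes stands behind each list's name (vertical axis). Both CD109-/- samples lie higher for the T cell, NK cell, macrophage, lung epithelial, interferon gamma, phosphatase, PD-L1 regulator and co-stimulatory lists and for the further co-inhibitory receptors, the B cell list lies lower, and the other lists, the co-inhibitory ligands among them, overlap. The lung epithelial list lies higher here although the median of its genes' differences was -0.18.

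The listed gene whose pattern over the 4 arrays lay nearest to each member was found by the root mean square distance of values centred on their mean, among the 188 tested genes of all lists. For Vsir these were Ccr7, a chemokine receptor gene of mature dendritic and T cells, at a distance of 0.027 for the first probe and Adgre1 at 0.13 for the second. For Pdcd1lg2 it was also Adgre1, at 0.044. For Cd86 the nearest genes were Cd6 (0.039), Cd38 (0.039) and the complement gene C1qa (0.097), for its probes A_55_P1971951, A_52_P145861 and A_51_P174723. Cd6, a T cell surface gene, was also nearest to Havcr2 (0.087), and Pilra, a myeloid inhibitory receptor gene, to Cd274 (0.067). Pdcd1 lay nearest to Jak2 (0.15) and Lag3 to Id2 (0.11). The Cd80 probes lay nearest to 3 different genes, Pecam1 for A_55_P2001218 (0.041), Sh2d1b1 for A_52_P244005 (0.096) and Ifng for A_51_P418295 (0.41). With 4 arrays and 188 genes near patterns are easily found, and these distances are descriptions.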

How the data were processed

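Per the labels' protocols, 100 ng of total RNA per sample was labelled with Cy3. The deposited scanner output holds linear intensity values from Agilent Feature Extraction 12.1.0.3, per the file headers, and its processed signal is background-subtracted and detrended. The authors' value table equals this processed intensity times a constant for each array (1.04 to 1.21), and no source used here states how the constant was set.

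Spots marked as outliers (58 to 73 per array) were left out, spots of 1 probe were averaged, and log2 values were taken relative to each array's 75th percentile. A probe counted as well above background when at least 50% of its spots were. It was tested when it was so on both arrays of at least 1 genotype and had a value on all 4 arrays. Probes were named through RefSeq accessions (GRCm38.p6). The files use another build, so no coordinates of probes are given, and the promoter windows come from RefSeq alone.

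The genotypes were compared by lmFit and eBayes in limma 3.58.1 under R 4.3.3, two-sided, without covariates, with Benjamini-Hochberg adjustment over all 35769 probes. Listed genes were read by their brightest tested probe. Tested on simulated arrays with 200 of 35777 probes changed, the fit called 19 of 100 probes changed by 2 and 94 of 100 changed by 4 on the log2 scale. The genes named were the members, the 3 listed genes per pathway list with the largest moderated t, fixed partners and markers, and the nearest genes. One gene that this rule names is not reported here. Members and lists were chosen with earlier results of these data known. Slide and scan session were the same for the 4 arrays. Alternatives were another background correction, quantile and median scaling, the authors' processed values, other filters, a variance trend, sex as a covariate, a block for the replicate number, keeping outlier spots, the mean of a gene's probes and leaving out each array.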

Additional observations from a re-analysis of the deposited data

How the results depend on the processing

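Each of the 13 tested member probes kept its direction under the 14 alternatives in which it was tested, and under none of them did a member pass limma's adjusted threshold (adjusted p between 0.177 and 1.0). By construction or because no member spot was concerned, the filters on dim probes, the variance trend, the replicate block and keeping outlier spots left the member differences identical, and sex as a covariate gave those without CD109-/- replicate 1, so these do not test the direction. Median scaling and the authors' processed values each moved every member difference by 1 small constant (Havcr2 from 1.06 to 1.09 and 1.03). Leaving out 1 array cannot turn a probe whose genotypes do not overlap. For such probes these alternatives do not test the direction. Tested probes that passed the filter only through the CD109-/- arrays do not test it either, since the filter favours higher values there. They are part of the medians over the 13 probes. Of the 179 member values under alternatives, 19 moved by over 1.5 times. Normexp background correction gave the 13 probes a median of 0.37, against 0.94 in the main analysis, and moved Cd80 A_51_P418295 most (0.32). When 1 array was left out, with the lone array of that genotype assumed to vary like the others, the median ranged from 0.69 to 1.02. The number of probes higher without overlap ranged from 11 to 12 and the number lower stayed at 1. Over all tested probes 28.7% to 33.8% were then higher without overlap and 34.7% to 42.5% lower. With 1 array against 2 separation is easier than with all arrays, so the steady count is no test. Over all probes, limma called 2 without CD109-/- replicate 2, against 0 with all arrays. With the replicate number as a block, 0 member probes passed (lowest adjusted p 0.221). The samples share only a number, and over the tested probes the differences between replicates 1 and 2 correlated between genotypes at r = 0.35. The list medians moved more: 47 of their 255 values under alternatives moved by over 1.5 times, among them co-stimulatory genes (0.33) and regulatory T cells (0.13) with normexp and B cell markers with the mean of each gene's probes (-0.027). Of these values 4 changed sign: PD-L1 protein regulators without CD109+/+ replicate 2 (-0.015), lung epithelial markers without CD109+/+ replicate 1 (0.020), endothelial markers without CD109-/- replicate 2 (-0.0015) and further co-inhibitory ligands with no filter on dim probes (0.012). The number of arrays limits every value. For Ctla4, Tigit, the Lag3 probes, 3 of the 4 Cd80 probes and the Cd86 probe A_51_P174723 the signal over background limits it too. With normexp the differences of Pdcd1 (0.26), Pdcd1lg2 (0.37) and the Cd86 probe A_52_P145861 (0.45) were also smaller than in the main analysis.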

Other observations

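Other cell types were read on the same arrays. For comparison, 50.3% of all genes tested had higher means, with a median of 0.0029. Fibroblast markers had higher means in CD109-/- tumours in 7 of 8 genes (median 0.60), with a summed level of 58.2 and 49.4 in CD109-/- tumours, against 40.8 and 35.8 in CD109+/+ tumours. Neutrophil markers had higher means in 5 of 8 genes (median 0.62, and 0.22 without CD109+/+ replicate 2), and the chemokine receptor gene Cxcr2 stood at -0.47 and -2.36 in CD109-/- tumours, against -3.11 and -3.35 in CD109+/+ tumours. B cell markers had lower means in 6 of 7 genes (median -0.20), among them the lineage factor gene Pax5 at -0.56 ± 0.24, although further probes of Cd22 (0.89) and Ms4a1 (1.53) ran against their brightest probes (-0.62 and -0.17), and the list's median was -0.027 with the mean of each gene's probes. The endothelial list had a median of 0.23, and its gene Tek differed by 0.93 ± 0.24. In each of these lists 0 genes passed limma's adjusted threshold. The genes named here were chosen after their values were seen.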
